A study of Homo sapiens and Mus musculus with 4 samples.

Results

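The genes described here fold, translocate and export the proteins that enter the endoplasmic reticulum (ER), the membrane system in which secreted and surface proteins are made. They are 58 genes picked by name for these functions and not by their values, although earlier results of these data were known when they were picked. Each was found exactly once among the 32738 human and once among the 27998 mouse genes of the table, which gives 116 of its 60736 rows. Mouse genes were matched by the same symbol in mouse spelling.

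The table comes from bulk RNA sequencing of 4 established lymphoid cell lines, each with 1 library of messenger RNA. The human lines, Jurkat and TALL104, both derive from T-cell leukaemias and serve the study as its CD4 and its CD8 T cells. Of the mouse lines, EL4 derives from a T lymphoma, and IVA12 is a hybridoma that stands for B cells. The study used these libraries as the reference for single-cell methods. The lines received no treatment in contrast with each other, but each grew in its own medium: RPMI-1640 for Jurkat and, with 2-mercaptoethanol, for EL4, DMEM for IVA12, and IMDM with interleukin-2 for TALL104. The authors also found TALL104 harder to culture, with slow growth and incomplete viability. Within each pair, line, medium, state of the culture and library therefore cannot be told apart. With no replicates the spread between cultures could not be measured and no test was made.

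Levels are given as FPKM, which scales the reads of a gene by its length and by the size of the library and so measures a share of the RNA. In bulk values, fewer cells with a transcript and less of it per cell cannot be told apart. The library totals behind the FPKM, recovered from the values themselves, were 25286728 to 34783047 reads. They may not be all the reads sequenced. Every interval quoted is at 95% and covers the counting of reads alone, and folds are ratios of FPKM. A gene was called higher in a line when its FPKM + 1 was above 1.5-fold that of the other line of the same species, among genes with at least 1 FPKM in either line. The T-cell genes CD3D, CD3E and LCK had 63.6 to 400.1 FPKM in Jurkat, TALL104 and EL4, and at most 0.527 in IVA12. The T-cell genes CD2 and CD28 split the lines less cleanly: CD2 had 86.0, 15.6, 17.8 and 9.99 FPKM in Jurkat, TALL104, EL4 and IVA12, and CD28 had 57.4, 0.989, 59.9 and 1.23. Among B-lineage genes, IVA12 had 163 FPKM of Cd79b, 46.5 of Ms4a1 and 1289 of Jchain, but only 0.0543 of Cd79a. CD79A had 16.5 FPKM in Jurkat and 24.6 in TALL104. The myeloid and erythroid genes looked at had at most 1.15 FPKM in any line.

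Proteins bound for secretion are recognised by the signal recognition particle as they leave the ribosome, pass through the SEC61 channel, lose their signal peptide and receive N-linked sugars. Chaperones and isomerases fold them, misfolded chains are sent back to the cytosol for degradation, and folded cargo leaves in COPII vesicles. When folding demand is high, the sensors IRE1 (gene ERN1), ATF6 and PERK (gene EIF2AK3) start the unfolded protein response, which raises many of these genes. Plasma cells, which secrete antibody, are the textbook case of a lymphoid cell with an enlarged ER.

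Some of the members carry a short promoter motif that ATF6 and XBP1, the transcription factor made after IRE1 splicing, are known to use. Promoter letters played no part in picking the genes. The functions they were picked for are, however, ones that the unfolded protein response is known to raise. The shares below thus describe the members and are no independent support for the set. In the RefSeq windows from 250 bases before to 50 bases after each human start site (build GRCh38.p14), the ER stress element, spelled CCAAT, 9 bases of any kind and CCACG on either strand, stood in 6 of the 50 members with a window. That is 12% of them, against 0.0916% of all 27305 genes with a window. The shorter second form, ATTGG, 1 base and CCACG, stood in 3 members or 6%, against 0.0696% of genes. Capitals mark the fixed letters, the rest is the flanking or spacer sequence, and each line reads 5′ to 3′ on the strand that holds the motif. For HSPA5 (chr9:125241386-125241414, minus strand), HSP90B1 (chr12:103930211-103930239, plus strand), CALR (chr19:12938379-12938407, minus strand), CRELD2 (chr22:49918549-49918577, minus strand), PDIA6 (chr2:10812848-10812876, minus strand) and CANX (chr5:179698773-179698801, plus strand, across the start site) the first form read as follows.
HSPA5: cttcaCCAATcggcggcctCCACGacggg
HSP90B1: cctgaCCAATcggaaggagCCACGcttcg
CALR: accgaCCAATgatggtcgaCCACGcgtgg
CRELD2: atggcCCAATccgagttcgCCACGagagg
PDIA6: ccggaCCAATgagccgcagCCACGgcttg
CANX: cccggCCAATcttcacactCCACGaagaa
HSP90B1 held another copy on the opposite strand (chr12:103930316-103930344). For HERPUD1 (chr16:56932016-56932044, plus strand), HYOU1 (chr11:119057371-119057399, plus strand) and SDF2L1 (chr22:21642105-21642133, minus strand) the second form read as follows.
HERPUD1: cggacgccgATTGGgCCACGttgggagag
HYOU1: cggcctgggATTGGaCCACGtcacggggc
SDF2L1: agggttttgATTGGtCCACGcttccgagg
HYOU1 also held a second copy of its form (chr11:119057265-119057293). The third motif searched, TGACGTGG on either strand, stood in HYOU1, SSR3 and SSR4, or 6% of members, against 0.927% of genes, and in HYOU1 it overlapped the copy shown above. A match says only that these letters are present. Mouse promoter sequence was not used here.

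As a set, the 58 genes were among the more abundant transcripts in every line. They summed to 2930 FPKM in Jurkat and 2819 in TALL104, with 3480 in EL4 and 5863 in IVA12. The sums were 1.15% ± 0.0023 of all human FPKM in Jurkat and 1.12% ± 0.0024 in TALL104, and 1.08% ± 0.0020 and 1.82% ± 0.0031 of all mouse FPKM in EL4 and IVA12 (± is the counting SE). IVA12 thus had the largest share of its own-species FPKM in them, and the other lines lay between 1.08% and 1.15%. Of the annotated antigen-receptor gene segments, 389 in human and 494 in mouse, the table held 0. Antibody and T-cell receptor transcripts from them are therefore in none of these sums, and their effect on the shares was not tested. The order of the human lines turned under other ways of summing: without mitochondrially encoded genes the shares were 1.36% in Jurkat and 1.41% in TALL104.

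The median member had 24.0 FPKM in Jurkat and 31.1 in TALL104, with 37.9 in EL4 and 56.3 in IVA12. The median gene of at least 1 FPKM had 8.64, 8.62, 10.7 and 10.2 FPKM in the same order, so the median member stood at percentile 82.3, 88.3, 84.6 and 89.98 of the genes detected in its library. At least 1 FPKM was reached by 57, 57, 55 and 58 of the members, and at least 100 FPKM by 9, 7, 8 and 15. The members below 1 FPKM were DERL3 in both human lines (0.129 in Jurkat, 0.641 in TALL104) and Derl3 (0.233), Ern1 (0.936) and Fkbp11 (0.0851, 2 reads) in EL4. The plot of levels by line shows that most members differed less between the lines of a species than they did from each other.

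**Figure D1:**
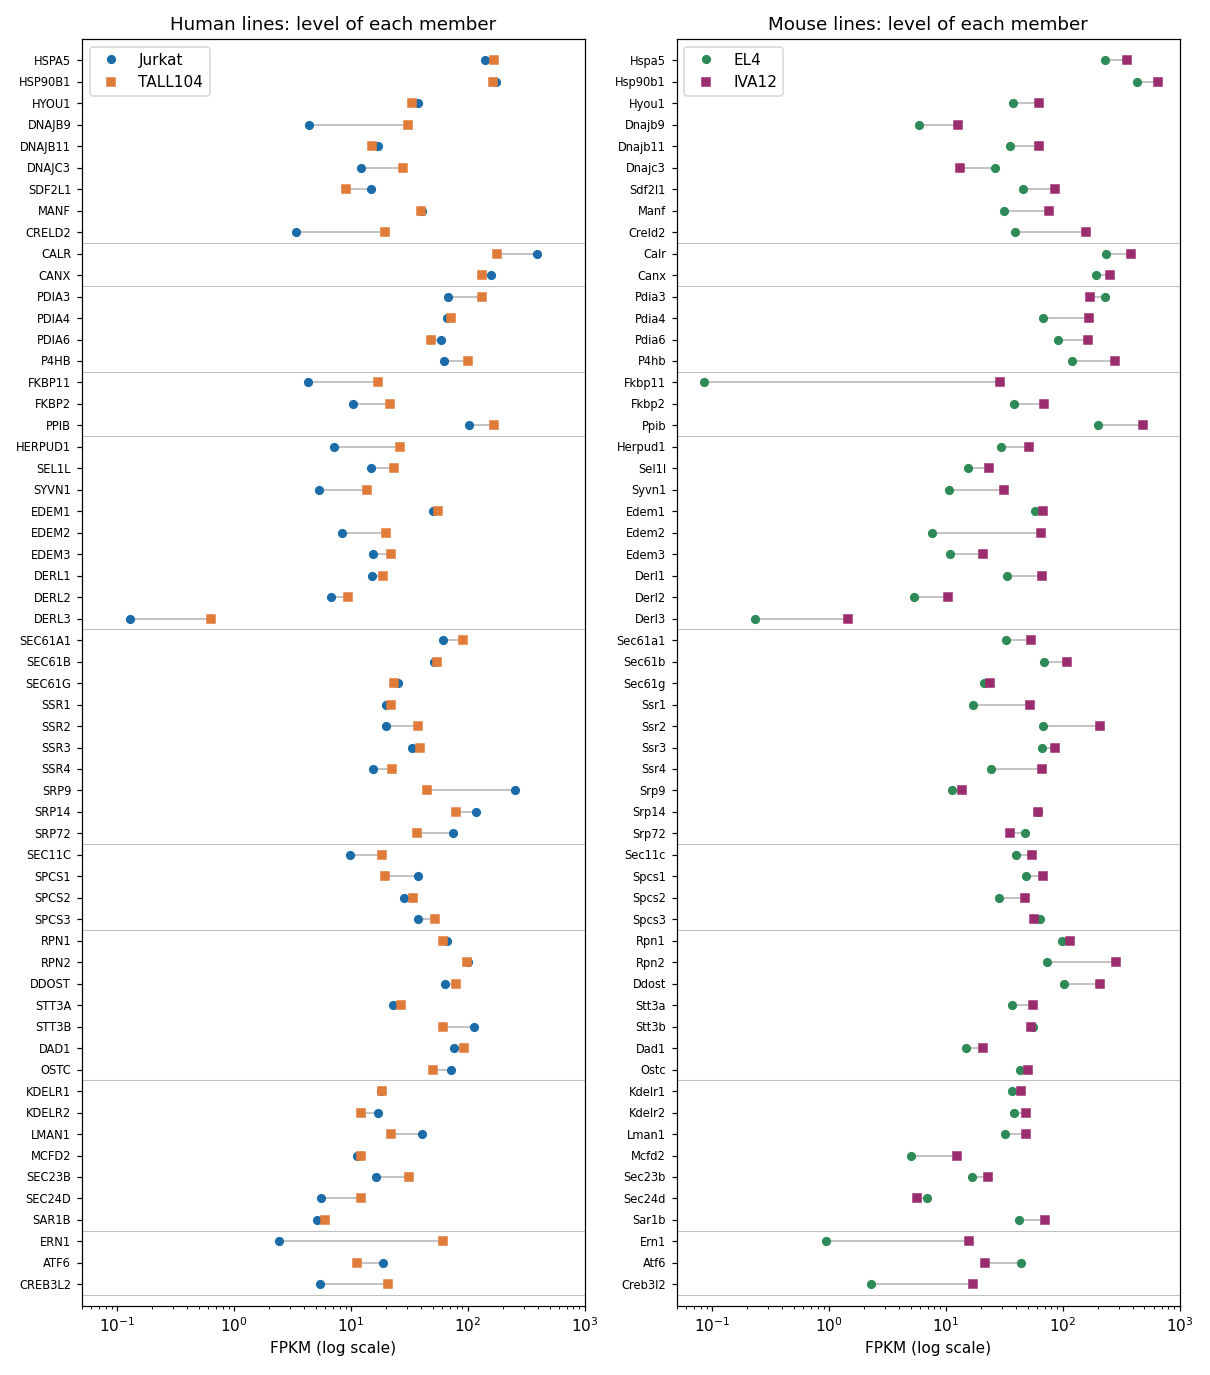
FPKM of each of the 58 members (log axis) in the human lines (left: Jurkat circles, TALL104 squares) and the mouse lines (right: EL4 circles, IVA12 squares), grouped by role between the grey lines, 1 library per line. Grey bars join the lines; the longest join 0.0851 and 28.8 FPKM for Fkbp11 and 2.45 and 61.6 FPKM for ERN1.

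Between the human lines, 8 of the 57 members tested were called higher in Jurkat (14.0%, against 34.2% of the 12214 human genes tested), 18 in TALL104 (31.6%, against 28.4%) and 31 in neither. The share higher in TALL104 was near that of all genes, while the share higher in Jurkat was below it. The median log2 ratio of Jurkat over TALL104 was -0.21 for the members and 0.10 for all genes tested, with 20 members above and 37 below 0. The counting interval of the ratio left out 1 for 54 of all 58 members, the untested DERL3 among them, so read counting limited few of these values. With at least 10 FPKM in both lines, a minimum added after the data were seen, 7 of 44 members were called higher in Jurkat (15.9%, against 31.9%) and 8 in TALL104 (18.2%, against 16.0%).

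Between the mouse lines, 34 of the 58 members were called higher in IVA12 (58.6%, against 26.5% of the 10801 mouse genes tested), 2 in EL4 (3.45%, against 23.8%) and 22 in neither. On FPKM + 1, the median member was 1.64-fold higher in IVA12 than in EL4, a log2 ratio of EL4 over IVA12 of -0.72, against -0.04 for all genes tested. A total of 50 members had the higher value in IVA12 and 8 in EL4, and the counting interval left out 1 for 57. Among the 49 members with at least 10 FPKM in both lines, 26 were called higher in IVA12 (53.1%, against 17.8% of such genes). The plot of cumulative ratios sets the members beside all genes in each pair.

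**Figure D2:**
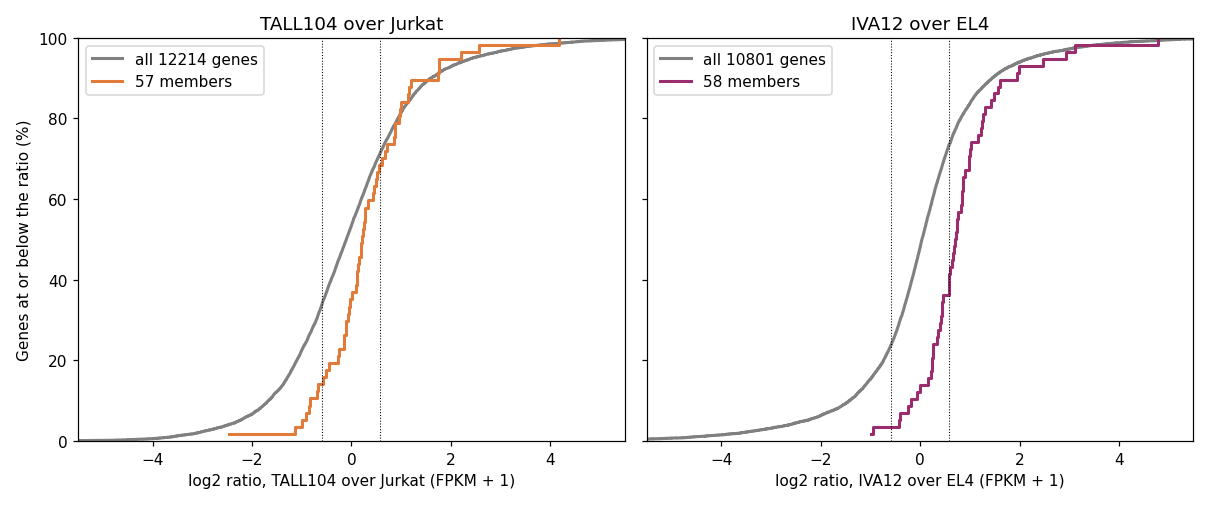
Cumulative percent of genes (vertical axis) at or below each log2 ratio on FPKM + 1 (horizontal axis), for TALL104 over Jurkat (left) and IVA12 over EL4 (right). Grey steps are all genes tested, coloured steps the members, and dotted lines mark 1.5-fold. In the mouse pair the members lie to the right of all genes over most of the range, with median ratios of 1.64 and 1.03, and in the human pair they lie to the right mainly among genes higher in Jurkat.

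HSPA5, the ER Hsp70 chaperone also called BiP (human chromosome 9, 127997132 to 128003661 on hg19; mouse chromosome 2, 34771970 to 34777547 on mm10), had 141 FPKM in Jurkat and 167 in TALL104, with 228 in EL4 and 355 in IVA12. HSP90B1, the ER Hsp90 known as GRP94, had 174, 165, 435 and 651 FPKM in the same order and was the highest member of both mouse lines. Both were abundant in all lines and differed little within the human pair. In the mouse pair Hspa5 was 1.56-fold higher in IVA12 (1.53 to 1.58). Hsp90b1, at 1.497-fold, was just short of the threshold on FPKM + 1.

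The partners of BiP split. DNAJB9, a J-domain protein that delivers clients to BiP, had 4.35 FPKM in Jurkat and 30.9 in TALL104, a 7.10-fold difference (6.41 to 7.88), and 5.89 in EL4 and 12.8 in IVA12, a 2.18-fold one (1.90 to 2.49). DNAJB11, another J-domain partner, had 17.0, 15.3, 35.2 and 63.0 FPKM in Jurkat, TALL104, EL4 and IVA12. DNAJC3, which also binds BiP, had 12.1 in Jurkat and 27.7 in TALL104 but 26.4 in EL4 and 13.2 in IVA12. It was the only member called higher in TALL104 and in EL4.

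HYOU1, a nucleotide exchange factor for BiP, had 37.1 FPKM in Jurkat and 33.6 in TALL104, with 37.7 in EL4 and 62.8 in IVA12. SDF2L1, which works with DNAJB11, had 14.99 and 9.05 FPKM in the human lines and 46.0 and 86.6 in the mouse lines. MANF, a small BiP-binding protein, had 40.3, 39.5, 31.5 and 76.5. These genes were higher in IVA12 and, apart from SDF2L1, were called in neither human line. CRELD2, an ER protein with isomerase activity, was far apart in both pairs: it had 3.42 FPKM in Jurkat and 19.4 in TALL104 (5.68-fold, 5.21 to 6.21) and 39.1 in EL4 and 157 in IVA12 (4.03-fold, 3.81 to 4.26).

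Of these 9 chaperones and partners, 3 were higher in TALL104, 1 in Jurkat and 5 in neither, and 7 were higher in IVA12, 1 in EL4 and 1 in neither. Over all genes the shares called were 28.4% in TALL104, 34.2% in Jurkat, 26.5% in IVA12 and 23.8% in EL4, and all counts by role are to be read against these, with few genes in each. Among the 9 genes whose promoters held an ER stress element of either form, the human pair therefore ran from CRELD2, 5.68-fold higher in TALL104, to CALR, 2.20-fold higher in Jurkat. The genes with the motif thus lay on both sides of 1 in the human pair.

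CALR and CANX are the lectin chaperones that hold freshly glycosylated chains. CALR (chromosome 19, 13049392 to 13055303) stood at 393 FPKM in Jurkat, the highest member of that line, and 179 in TALL104, a 2.20-fold difference (2.16 to 2.24). In the mouse lines Calr had 234 FPKM in EL4 and 385 in IVA12, 1.64-fold higher in IVA12. CANX, the membrane-bound form, had 158, 133, 192 and 254 FPKM in Jurkat, TALL104, EL4 and IVA12 and was called in no line. CALR was thus higher in Jurkat in the human pair and in IVA12 in the mouse pair, a pattern shared only with SDF2L1 among the members.

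The disulfide isomerases make and rearrange the disulfide bonds of folding chains. P4HB, the founding member of this family, had 62.5 FPKM in Jurkat and 100.3 in TALL104, with 120.0 in EL4 and 283 in IVA12. PDIA3, which works with the lectin chaperones, had 67.9, 133, 230.3 and 172 FPKM. Both were higher in TALL104, by 1.604-fold (1.57 to 1.64) and 1.958-fold (1.91 to 2.01), but in the mouse pair P4hb was 2.36-fold higher in IVA12 (2.30 to 2.41) and Pdia3 was 1.34-fold higher in EL4, below the threshold. PDIA4 had 66.2, 71.9, 67.2 and 168 FPKM, and PDIA6 had 58.5, 48.2, 90.7 and 164. Both were called in neither human line and higher in IVA12.

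All 3 prolyl isomerases were called higher in TALL104 and in IVA12. They speed the turning of proline bonds in folding chains. PPIB, cyclophilin B, had 102 FPKM in Jurkat and 168 in TALL104, with 202 in EL4 and 487 in IVA12, which made it the second highest member in IVA12. FKBP2 had 10.3, 21.4, 38.3 and 69.5 FPKM. FKBP11, a membrane-anchored family member (human chromosome 12, 49315301 to 49320257; mouse chromosome 15, 98724366 to 98728198), stood at 4.30 FPKM in Jurkat and 16.9 in TALL104 (3.93-fold, 3.61 to 4.27). In EL4 Fkbp11 had 0.0851 FPKM from 2 reads (0.0103 to 0.307) and in IVA12 28.8 FPKM from 533 reads, a ratio of 339 with a counting interval of 93.3 to 2805. The human gene overlaps another gene on the same strand, and its value may share reads with it. Together the prolyl isomerases summed to 117 and 206 FPKM in the human and 240 and 585 in the mouse lines.

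**Figure D3:**
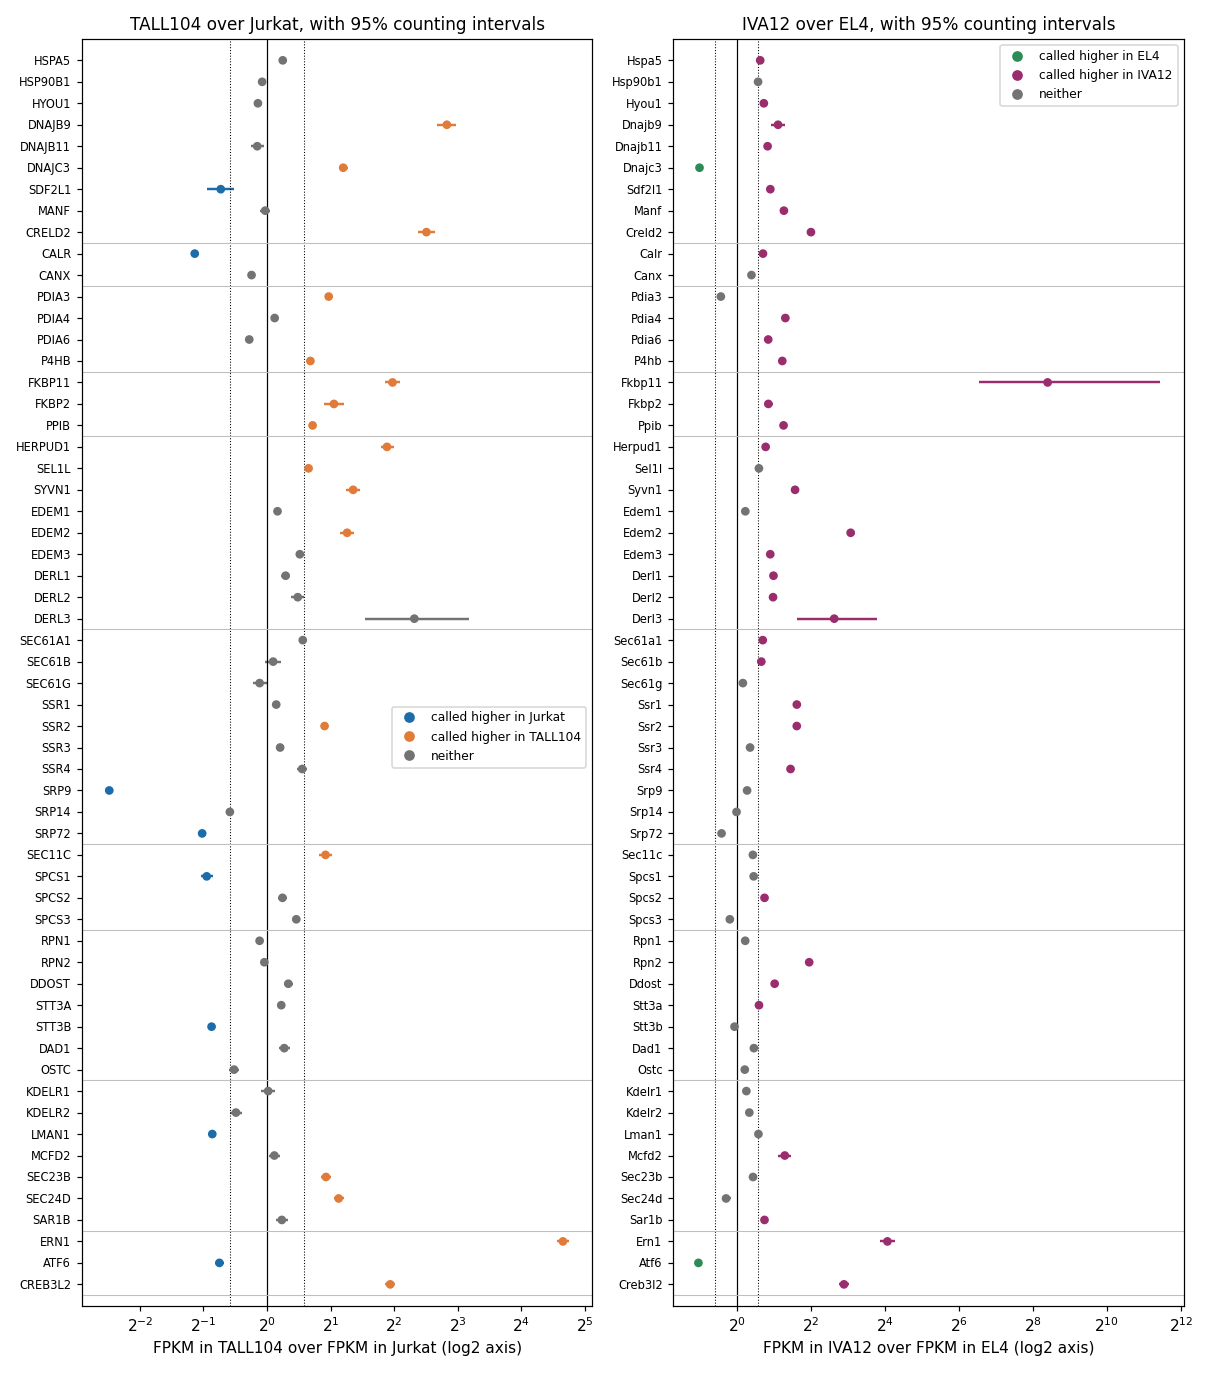
Ratio of FPKM in TALL104 over Jurkat (left) and IVA12 over EL4 (right) for each member, on log2 axes, with bars for 95% counting intervals where wider than the point. Dotted lines mark 1.5-fold; colours follow the call on FPKM + 1, so a low gene such as DERL3 can lie beyond a line uncalled. ERN1 lies farthest right in the human pair at 25.2 and Fkbp11 in the mouse pair at 339, and 2 mouse genes, Dnajc3 and Atf6, are coloured for EL4.

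ER-associated degradation (ERAD) returns misfolded chains to the cytosol. SYVN1, its ubiquitin ligase, had 5.32 FPKM in Jurkat and 13.6 in TALL104, with 10.6 in EL4 and 31.6 in IVA12. SEL1L, the partner that holds the ligase, had 14.8, 23.3, 15.4 and 23.4 FPKM. HERPUD1, a scaffold of the same complex, had 7.17, 26.5, 29.8 and 51.4. The ligase and its scaffold were higher in TALL104, by 2.56-fold (2.37 to 2.76) and 3.70-fold (3.45 to 3.97), and in IVA12, by 2.99-fold (2.82 to 3.17) and 1.73-fold (1.63 to 1.82). SEL1L was called higher in TALL104 at 1.57-fold, and Sel1l at 1.52-fold in IVA12 fell short on FPKM + 1.

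The EDEM proteins act on the sugars that mark a chain for ERAD. EDEM1 was the highest ERAD member by its mean over the lines, at 49.9, 56.0, 57.6 and 67.9 FPKM in Jurkat, TALL104, EL4 and IVA12, and was called in no line. EDEM2 (mouse chromosome 2, 155701677 to 155729475) stood at 8.38 FPKM in Jurkat and 20.1 in TALL104 (2.39-fold, 2.22 to 2.59), and 7.63 in EL4 and 64.6 in IVA12 (8.47-fold, 7.88 to 9.12). EDEM3 had 15.3, 21.9, 10.96 and 20.6. Within this family the difference was thus largest for EDEM2 in both pairs and smallest for EDEM1.

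The derlins, which help chains leave through the ER membrane, kept a fixed order. DERL1 had 15.2 FPKM in Jurkat and 18.6 in TALL104, with 33.4 in EL4 and 66.7 in IVA12. DERL2 had 6.75, 9.43, 5.31 and 10.5 FPKM. DERL3 was lowest in each line, with 0.129, 0.641, 0.233 and 1.45 FPKM from 17, 69, 10 and 49 reads. Derl1 and Derl2 were close to 2-fold higher in IVA12, at 1.997 (1.91 to 2.09) and 1.98 (1.85 to 2.12), and Derl3 was called only through its level in IVA12. Of the ERAD genes, 4 of 8 tested were higher in TALL104 (28.4% of all genes) and 7 of 9 in IVA12 (26.5% of all genes), with none called higher in Jurkat or EL4.

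The signal recognition particle carries ribosomes with a nascent signal peptide to the ER. SRP9, a subunit of its Alu domain (human chromosome 1, 225965515 to 225978170), stood at 252 FPKM in Jurkat and 45.1 in TALL104, a 5.58-fold difference (5.34 to 5.84) and the largest of any member higher in Jurkat. Srp9 had 11.2 FPKM in EL4 and 13.7 in IVA12. SRP14, its partner in that domain, had 118, 78.9, 62.0 and 62.0 FPKM, and SRP72, a subunit of the other domain, had 75.3, 37.1, 47.3 and 35.7. All 3 subunits had their higher human value in Jurkat, although SRP14, at 1.4997-fold, was just short of the threshold, and none was called in the mouse pair. The annotation holds 1 pseudogene named after SRP9, 5 after SRP14 and 2 after SRP72, and reads shared with these copies could not be separated.

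Chains enter through the SEC61 channel. SEC61A1, the pore, had 61.2 FPKM in Jurkat and 90.3 in TALL104, with 32.9 in EL4 and 53.8 in IVA12. SEC61B had 51.2, 54.7, 68.5 and 109 FPKM, and SEC61G had 25.2, 23.3, 21.3 and 24.0. SEC61G was the lowest of the channel subunits in all 4 lines and was called in none. The pore subunit was the highest in the human lines and SEC61B in the mouse lines. SEC61A1 stood just outside the threshold in the human pair, at 1.48-fold higher in TALL104.

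The translocon-associated complex beside the channel helps some chains to enter. SSR2 had 19.9 FPKM in Jurkat and 37.2 in TALL104, with 67.5 in EL4 and 208 in IVA12. SSR1 had 19.9, 21.9, 16.9 and 52.4 FPKM, SSR3 had 33.6, 38.7, 66.6 and 85.8, and SSR4 had 15.4, 22.5, 24.3 and 66.7. Ssr1, Ssr2 and Ssr4 were higher in IVA12 by 3.09-fold (2.99 to 3.19), 3.09-fold (2.98 to 3.21) and 2.75-fold (2.62 to 2.89), and Ssr3 only by 1.29-fold. In the human pair SSR2 alone was called, at 1.87-fold higher in TALL104 (1.80 to 1.94). SSR3 and SSR4, whose promoters share the third motif above, were called in neither human line.

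Signal peptidase cuts off the signal peptide. SEC11C, a catalytic subunit, had 9.83 FPKM in Jurkat and 18.6 in TALL104, with 40.1 in EL4 and 54.4 in IVA12. SPCS1 had 37.6, 19.5, 48.9 and 67.3 FPKM, SPCS2 had 28.6, 33.8, 28.3 and 47.8, and SPCS3 had 37.8, 51.9, 64.0 and 56.5. In the human pair SEC11C was 1.89-fold higher in TALL104 (1.76 to 2.03) and SPCS1 1.93-fold higher in Jurkat (1.81 to 2.06), so subunits of 1 complex were called in opposite directions. The subunits spanned 3.84-fold in Jurkat and 1.41-fold in IVA12.

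Oligosaccharyltransferase attaches N-linked sugars. RPN2, a scaffold subunit, had 100.4 FPKM in Jurkat and 97.4 in TALL104, with 73.3 in EL4 and 286 in IVA12, where it was 3.90-fold higher than in EL4 (3.81 to 3.98). RPN1, another scaffold subunit, had 66.6, 61.4, 98.1 and 115 FPKM and was called in no line. DDOST had 63.2, 79.7, 102.5 and 209 FPKM, 2.04-fold higher in IVA12 (1.98 to 2.10). The catalytic subunits differed from each other: STT3A had 22.7, 26.6, 36.9 and 56.1 FPKM and was called higher in IVA12 at 1.52-fold, whereas STT3B had 113, 61.5, 55.4 and 53.3 and was called higher in Jurkat at 1.83-fold (1.79 to 1.88). DAD1 had 76.6, 92.4, 14.98 and 20.7 FPKM and OSTC 71.7, 50.01, 43.0 and 50.2, both called in no line. The highest subunit was 13.8-fold above the lowest in IVA12 (RPN2 over DAD1) and 3.67-fold in TALL104 (RPN2 over STT3A).

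Of the 7 genes for traffic between ER and Golgi, 1 was called higher in Jurkat, 2 in TALL104 and 2 in IVA12. KDELR1 and KDELR2, the receptors that return escaped ER proteins, had 18.2 and 17.1 FPKM in Jurkat, 18.4 and 12.2 in TALL104, 36.8 and 38.0 in EL4 and 44.2 and 48.3 in IVA12, and were called in no line. LMAN1, a cargo receptor for coagulation factors, had 40.3, 22.2, 32.1 and 48.4 FPKM and was 1.82-fold higher in Jurkat (1.75 to 1.88). MCFD2, its partner, had 11.2, 12.1, 5.08 and 12.55. The receptor was thus called in the human pair only, and its partner, 2.47-fold higher in IVA12 (2.19 to 2.78), in the mouse pair only.

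Among the COPII coat genes, SEC23B had 16.5, 31.4, 16.8 and 22.9 FPKM in Jurkat, TALL104, EL4 and IVA12, and SEC24D had 5.54, 12.1, 6.94 and 5.70. Both were higher in TALL104, by 1.90-fold (1.80 to 2.003) and 2.18-fold (2.06 to 2.31), and called in neither mouse line. SAR1B, the GTPase that starts the coat, had 5.09, 5.98, 42.0 and 71.0 FPKM, 1.69-fold higher in IVA12 (1.58 to 1.80). The summed level of the traffic genes was 114 FPKM in Jurkat and 114 in TALL104, and 178 in EL4 and 253 in IVA12.

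ERN1, the IRE1 sensor (human chromosome 17, 62116440 to 62208179; mouse chromosome 11, 106394650 to 106487852), stood at 2.45 FPKM in Jurkat and 61.6 in TALL104, a 25.2-fold difference (23.6 to 26.9). In the mouse pair it had 0.936 FPKM in EL4 and 15.8 in IVA12, 16.9-fold apart (14.8 to 19.3). CREB3L2, an ER-membrane transcription factor related to ATF6, had 5.47 and 20.9 FPKM in Jurkat and TALL104 (3.83-fold, 3.62 to 4.05) and 2.30 and 17.2 in EL4 and IVA12 (7.48-fold, 6.82 to 8.21). ERN1 showed the largest human difference of any member, and Fkbp11, Ern1, Edem2 and Creb3l2 the largest in the mouse pair. ERN1 overlaps genes on the other strand in human, and the mouse gene overlaps none.

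ATF6 went the other way. It had 18.8 FPKM in Jurkat and 11.2 in TALL104 (1.68-fold higher in Jurkat, 1.602 to 1.76), and 44.1 in EL4 and 21.6 in IVA12 (2.04-fold higher in EL4, 1.98 to 2.11). It was the only member called higher in Jurkat and in EL4. ERN1, CREB3L2 and ATF6, the group of sensors and factors, summed to 26.7 FPKM in Jurkat and 93.7 in TALL104 but 47.4 in EL4 and 54.6 in IVA12. Both human ATF6 and mouse Atf6 overlap other genes on the same strand.

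By role, the summed FPKM differed least in traffic genes in the human pair and in the sensors and factors in the mouse pair. TALL104 was above Jurkat by 3.51-fold in the sensors and factors, 1.76-fold in the prolyl isomerases, 1.54-fold in ERAD and 1.38-fold in the disulfide isomerases. It was below Jurkat in the lectin chaperones, at 0.566 of the Jurkat sum, and in targeting and translocation, at 0.670. IVA12 was above EL4 in all 10 roles, from 1.15-fold in the sensors and factors and 1.25-fold in signal peptidase to 1.98-fold in ERAD and 2.44-fold in the prolyl isomerases. These sums are led by the highest genes, such as SRP9 in Jurkat.

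**Figure D4:**
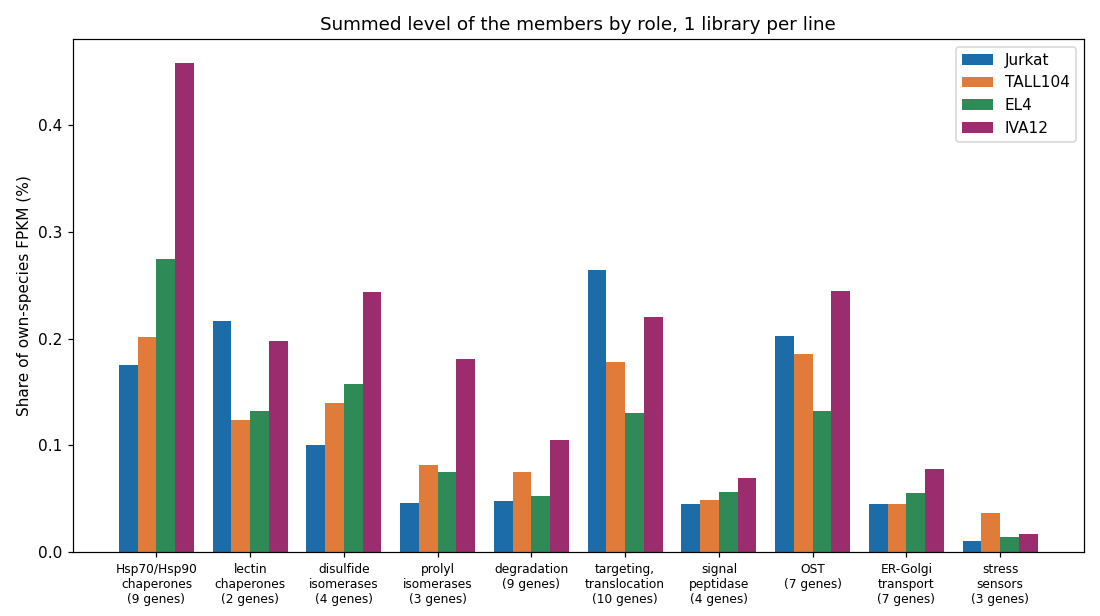
Summed FPKM of the members of each role as a percent of all FPKM of the line's own species (bars from 0; OST, oligosaccharyltransferase), 1 library per line, so no error between cultures is shown. IVA12 is above EL4 in each role, and among the human lines Jurkat is above TALL104 in the lectin chaperones (0.217% and 0.123%) and in targeting and translocation (0.265% and 0.178%).

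The human and the mouse pair share no library. Called higher in both TALL104 and IVA12 were 12 members, which are 66.7% of the 18 called in TALL104 and 35.3% of the 34 called in IVA12. Of all members tested, 58.6% were called in IVA12 and 31.6% in TALL104, and the shares of the overlap are to be read against these. The 12 were DNAJB9, CRELD2, P4HB, FKBP11, FKBP2, PPIB, HERPUD1, SYVN1, EDEM2, SSR2, ERN1 and CREB3L2. They hold the prolyl isomerases in full, 3 ERAD genes and, of the group of sensors and factors, ERN1 and CREB3L2 but not ATF6. They hold no gene of signal peptidase, oligosaccharyltransferase or traffic. A further 12 members were called in no line: HSP90B1, CANX, EDEM1, SEC61G, SSR3, SRP14, SPCS3, RPN1, DAD1, OSTC, KDELR1 and KDELR2. Across the 58 members the log2 ratios of the pairs had a Pearson r of 0.52 and a Spearman rho of 0.44, a description over genes of shared annotation, with no p since genes are not replicates.

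**Figure D5:**
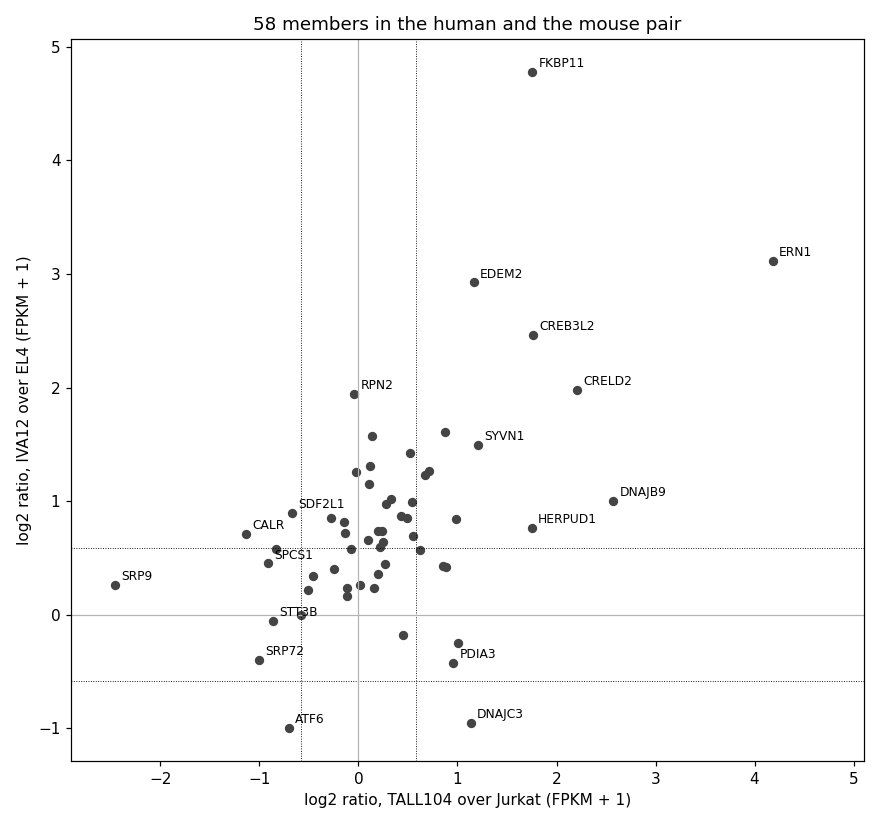
Log2 ratio on FPKM + 1 of TALL104 over Jurkat (horizontal) against IVA12 over EL4 (vertical) for each of the 58 members, with dotted lines at 1.5-fold and the outermost genes named. The 12 genes in the upper right corner are higher in TALL104 and IVA12, ERN1 and FKBP11 farthest out, and ATF6 alone lies beyond both lines at the lower left.

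The order of the members by level was more alike within a species than between species. The Pearson r of log2(FPKM + 1) over the 58 genes was 0.81 between the human lines and 0.85 between the mouse lines, and 0.63 to 0.75 between a human and a mouse line. The lines of a species shared the annotation but not the library or its depth. The genes of a line shared 1 library, so these are descriptions. Ranks among detected genes set a few members apart. SAR1B was at percentile 33.2 and 37.02 in Jurkat and TALL104 but 86.1 and 92.5 in EL4 and IVA12. SRP9 was at 99.2 and 93.1 against 51.6 and 58.8, and DAD1 at 95.9 and 97.5 against 61.2 and 71.5. Gene lengths come from a separate annotation in each species, and their part in these gaps was not tested.

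Beyond the members, a list of 70 further genes of the same pathway was counted the same way. Of 65 tested in the human pair, 20 were higher in TALL104, 7 in Jurkat and 38 in neither (28.4% and 34.2% of all genes were higher in TALL104 and in Jurkat), with a median log2 ratio of Jurkat over TALL104 of -0.16. Of 65 tested in the mouse pair, 32 were higher in IVA12, 5 in EL4 and 28 in neither (26.5% and 23.8% of all genes), with a median of EL4 over IVA12 of -0.57. As with the members, the mouse pair leaned further towards IVA12 than the human pair towards TALL104. By role, the genes of the list higher in IVA12 were 7 of 10 stress sensors and factors, 9 of 16 folding genes, 4 of 10 ERAD genes, 7 of 10 targeting and translocation genes, 2 of 5 oligosaccharyltransferase genes and 3 of 14 traffic genes, the last below the 26.5% of all genes.

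XBP1, whose messenger RNA IRE1 splices, had 31.3 FPKM in Jurkat and 76.6 in TALL104 (2.45-fold, 2.35 to 2.55), and 15.9 in EL4 and 133 in IVA12 (8.32-fold, 7.90 to 8.77). It was higher in the same lines as ERN1, and the spliced form was not measured by these gene totals. EIF2AK3, the PERK sensor, had 5.497 and 18.1 FPKM in Jurkat and TALL104 (3.30-fold, 3.07 to 3.54) and 13.1 and 17.0 in EL4 and IVA12, which was below the threshold. ATF4, the factor translated after PERK acts, had 172, 151, 147 and 249.6 FPKM and was called only in IVA12, at 1.701-fold. DDIT3, its target CHOP, had 7.03 and 33.9 FPKM in Jurkat and TALL104 but 10.1 and 5.66 in EL4 and IVA12, so it was called higher in TALL104 and in EL4.

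On the FPKM + 1 scale, the list's largest ratios were those of PPP1R15A, MZB1 and DDIT3 in the human pair and of Mzb1, Tusc3 and Xbp1 in the mouse pair. PPP1R15A, which helps undo the PERK signal, had 5.14 FPKM in Jurkat and 31.1 in TALL104 (6.05-fold, 5.52 to 6.64). MZB1, a partner of GRP94 in B cells and plasma cells, had 47.7 FPKM in Jurkat and 8.88 in TALL104, while the mouse gene had 0.172 in EL4 and 499 in IVA12. TUSC3, an accessory subunit of oligosaccharyltransferase, had 2.96 FPKM in Jurkat and 0.0204 in TALL104, from 3 reads (a ratio of 145, 49.4 to 706), and 27.5 in EL4 and 0.105 in IVA12, from 4 reads. MZB1 was thus higher in IVA12 and TUSC3 higher in EL4 among the mouse lines, while both were higher in Jurkat among the human lines.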

How the data were processed

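Total RNA of 4 cell lines was made into 1 stranded mRNA library each. The authors aligned reads to a combined human hg19 and mouse mm10 reference with STAR 2.5.1b, counted genes with featureCounts 1.6.3 and deposited FPKM values. The submitters' notes also name Cell Ranger 1.2.0, and the paper gives cellRanger_1.2.0 as the name of this reference. The lengths behind the FPKM and the treatment of reads with several alignments are not given in the sources used here. Both ends of each fragment were sequenced, and whether the ends were counted together is not given either. Ends counted apart would make the counting intervals too narrow.

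Reads were recovered from the steps between FPKM values, for gene lengths up to 300000 bases and at a relative tolerance of 1e-12. The totals used were 34783047 (Jurkat), 28345951 (TALL104), 32149319 (EL4) and 25286728 (IVA12). Lengths were fitted so that reads come out whole, so the 100% of values above 0 that were whole is no check of the recovery. The recovered length equalled the annotated one for 3 of 58 human and 43 of 58 mouse members; other reads may miss a common factor, which makes their intervals too wide. Poisson intervals for levels and exact conditional intervals for ratios, at 95%, cover counting error only. No count model was run, since each line has 1 library. Log2 ratios used FPKM + 1, which understates the change of low genes.

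Symbols, positions and overlaps came from GENCODE human release 44 on GRCh37 and mouse release M21, by gene identifier. In human, 18 members overlap a gene on the same strand, 33 on the other strand, and 11 have pseudogenes that carry their name; in mouse these are 7, 20 and 2. Promoter windows came from RefSeq and covered 50 members. Python 3.11.15, NumPy 2.4.6, pandas 2.3.3, SciPy 1.17.1 and matplotlib 3.10.9 were used, and the calculation was tested on simulated data.

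The members, lists and rules were chosen with earlier results of these data known. Named first were, in each pair, the 5 members with the largest ratio in each direction past 1.5-fold, the 3 highest per library, the highest of each role, members below 1 FPKM or nearest the threshold, XBP1, ATF4, DDIT3 and EIF2AK3, and the 3 genes of the pathway list with the largest ratios; all other members are given by their values. Alternatives were a pseudocount of 0.1, other minimums, 2 scalings, a 2-fold threshold, the counting interval, shares without mitochondrially encoded genes or the highest member, and recovered reads. 1 of the marker genes is not reported here.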

Additional observations from a re-analysis of the deposited data

Results flagged for a closer look

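In every library some reads fell on member genes of the species that the line does not belong to, more than the 3 counts taken as a floor, and no comparison above used them. Summed over the 58 genes, the other-species FPKM was 1.80 in Jurkat (187 reads on 46 genes), 1.44 in TALL104 (127 reads on 42 genes), 1.38 in EL4 (176 reads on 43 genes) and 7.26 in IVA12 (714 reads on 55 genes). These sums were 0.0615%, 0.0510%, 0.0397% and 0.124% of the members' own-species FPKM, beside 0.0474%, 0.0457%, 0.0380% and 0.175% for all genes. The highest single values were Ppib in Jurkat (0.359) and TALL104 (0.257) and CALR in EL4 (0.138) and IVA12 (0.685). There was no library without cells of either species to set them against, and their source was not tested.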

How the results depend on the processing

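No paired analysis was possible because each line has 1 library, and for the same reason leaving out a replicate could not be tried. No median and no called ratio changed direction under the alternatives run; the uncalled ratios of HSP90B1 and RPN2 (log2 of Jurkat over TALL104, 0.08 and 0.04) turned to -0.03 and -0.07 under median scaling. At a 2-fold threshold the members called were 3 for Jurkat and 10 for TALL104, and 0 for EL4 and 17 for IVA12, against 22.5%, 18.6%, 15.3% and 16.4% of all genes tested (5.26%, 17.5%, 0% and 29.3% of members). A minimum of 10 FPKM in both lines, added after the data were seen, left 8 higher in TALL104, from 44 members tested (18.2%, against 16.0% of all such genes). Scaling by the median ratio shifted human log2 ratios by 0.11, and by less for low genes because of the added 1. It moved the human median from -0.21 to -0.32. Members called were then 7 for Jurkat and 21 for TALL104 (12.3% and 36.8%, against 31.0% and 31.0% of all genes tested). For EL4 and IVA12 they were 2 and 33 (3.45% and 56.9%, against 24.3% and 26.1%). The members' shares in Jurkat, TALL104, EL4 and IVA12 were 1.36%, 1.41%, 1.14% and 1.91% without mitochondrially encoded genes, 1.09%, 1.17%, 1.24% and 1.98% of recovered reads, and 1.001%, 1.05%, 0.948% and 1.62% without the highest member. IVA12 was highest in all of these, and TALL104 was above Jurkat in each, opposite to the order of the deposited FPKM. The cause was not tested. Recovered reads may miss a common factor that differs by gene, so the shares of recovered reads are approximate. Of 66 ratios of named genes, 15 moved by more than their counting error at a pseudocount of 0.1, 24 under median scaling and 0 under equal totals. Depth limited Fkbp11 in EL4 and DERL3 in all lines, while the spread between cultures is unknown for all.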
